A study of Mus musculus with 73 samples.

Results

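Control livers that had regrown after partial hepatectomy were set against control livers that had not, over 100 bp tiles measured by reduced representation bisulfite sequencing (RRBS). The first group, called hepatectomy GFP controls here, held 2 libraries from livers that received a virus carrying GFP (AAV GFP) and then partial hepatectomy, at 12 weeks of age. The second group, called Foxa3-null GFP controls, held 5 libraries of the genotype FoxA1L/L;FoxA2L/L;FoxA3-/- that received GFP in place of Cre. Of these, 3 were taken 7 days later at 9 weeks of age and 2 were taken 13 days later at 12 weeks of age. Members were the tiles with a value in all 7 libraries, 442253 of 817277 in the table (54.1%). The 7 libraries belong to a series of 73 samples, 27 of them RRBS libraries, on livers that lost the FoxA factors.

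Both groups received GFP and no Cre. They differed in regrowth, in Foxa3 genotype and in the experiment they came from, which cannot be told apart in any value below. Experiment means here the hepatectomy set or the triple null set of livers, as the labels name no batch. Age differed as well, since the 7-day controls were 9 weeks old and the other controls 12 weeks. The days since GFP are given for the Foxa3-null controls only. The Foxa3-null controls carry conditional Foxa1 and Foxa2 alleles that GFP leaves intact, and they carry no intact Foxa3 allele. The labels of the hepatectomy libraries name no Foxa3 deletion, do not give the alleles of the controls, and do not give the time between hepatectomy and collection. No label says that libraries came from separate animals, so p-values measure the spread between these samples, which may be technical.

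DNA methylation in mammals sits mainly on CpG dinucleotides and is copied to the new strand by maintenance methyltransferases each time a cell divides. After partial hepatectomy the remaining hepatocytes, which rarely divide otherwise, re-enter the cell cycle until liver mass is restored. Foxa1, Foxa2 and Foxa3 encode forkhead factors that bind liver enhancers and can open chromatin there, and lowly methylated DNA is typical of active enhancers and of CpG island promoters. Foxa3 lies on chromosome 7 (RefSeq, GRCm38.p6). The deposited positions are of the mm9 build, and the mm9 position of Foxa3 was not used here.

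Libraries had values at 549803 to 617163 tiles, and with no coverage in the table the number of reads under a level is not known. The share of tiles at exactly 100% was 3.33 and 3.65% in the hepatectomy GFP controls, 3.69 to 5.09% in the 7-day controls, and 10.9 and 11.3% in the 13-day controls. The 13-day triple nulls, both above 10%, stood with the 13-day controls in this respect. The mean absolute difference between 2 libraries over all tiles was 5.36 points within the hepatectomy GFP controls, 5.37 to 5.71 points from them to 7-day controls, and 6.16 to 6.44 points from them to 13-day controls. Within the 7-day controls it was 5.25 to 5.30 points, and the part of the 13-day share at 100% in the differences was not tested, so results are also given against each day alone.

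Over all tiles the regrown control livers were slightly less methylated than the Foxa3-null control livers. The mean level was 56.1 and 56.4% in the hepatectomy GFP controls, against 57.4, 56.7 and 57.2% in 7-day Foxa3-null controls and 58.6 and 59.6% in 13-day Foxa3-null controls. Both hepatectomy libraries lay below all 5 Foxa3-null libraries. The means were 56.2% ± 0.276 (SD, n = 2) and 57.9% ± 1.17 (n = 5), which makes -1.65 points (two-sided exact permutation over libraries, p = 0.0952; 2 against 5 libraries can give no smaller p). Against 7-day controls alone the difference was -0.861 points and against 13-day controls alone -2.83 points, while the 13-day controls themselves lay 1.97 points above the 7-day controls. Of all tiles, 63.3% had a lower mean in the hepatectomy GFP controls, with a median difference of -0.606 points. In the null livers of the same experiments, which share no library with the controls, the means were 56.0% ± 0.279 in hepatectomy double nulls (n = 3) and 57.6% ± 0.628 in triple nulls (n = 5), a difference of -1.63 points.

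The lower level was found at tiles of intermediate and high methylation and not at unmethylated tiles. Tiles were placed in classes by their mean in the 4 control libraries of the age series, which are in neither group. These livers were 20 days, 8 weeks, 4 months and 6 months old. In the lowest class, 0 to 10% methylated, 111593 tiles averaged 1.54% in the hepatectomy GFP controls and 1.48% in the Foxa3-null GFP controls, and at 10 to 20% they averaged 11.02% and 11%. In every class from 30% upward both hepatectomy libraries lay below all 5 Foxa3-null libraries. The difference was widest at 70 to 80%, at -3.46 points (-2.21 against 7-day and -5.34 against 13-day controls), and at 90 to 100% it was -1.97 points. Hepatectomy double nulls differed from triple nulls by -3.95 points at 70 to 80% and by 1.22 points at 10 to 20%.

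**Figure D1:**
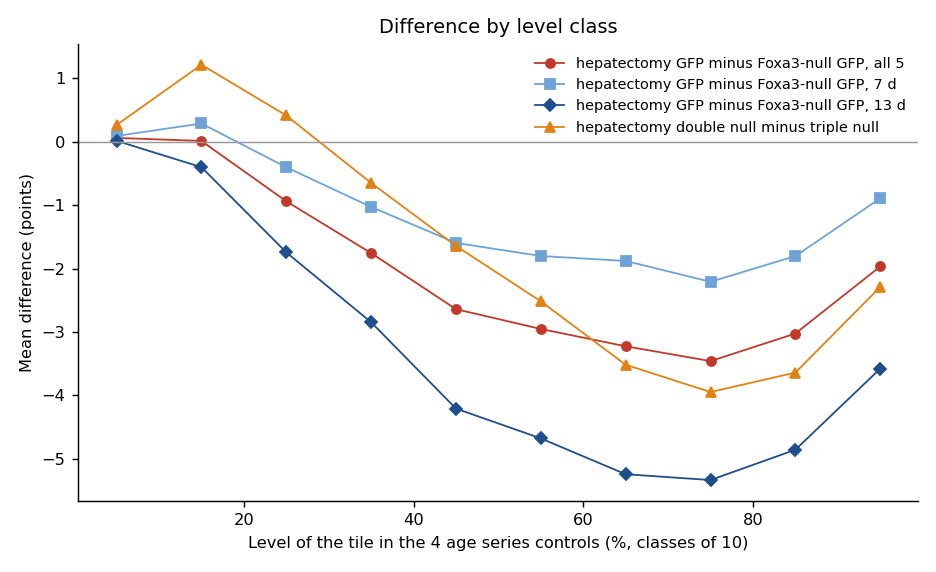
Mean difference in methylation level (percentage points) by level class of the tile in the 4 age series controls (% methylated, classes of 10). Lines show hepatectomy GFP minus Foxa3-null GFP controls, against all 5, the 7-day and the 13-day libraries, and hepatectomy double nulls minus triple nulls; each starts near 0 and is lowest at 70 to 80%, where the first reaches -3.46 points.

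Tiles at FoxA binding sites were described as classes. Listed FoxA sites are those the authors deposited as hyper-methylated, a list that rests on whole-genome bisulfite libraries of developmental nulls and controls and not on the libraries compared here. At 133 tiles inside listed sites the mean level was 23.0 and 21.7% in the hepatectomy GFP controls. It was 26.7, 26.6 and 26.9% in 7-day and 28.7 and 30.3% in 13-day Foxa3-null controls. The groups did not overlap, at 22.3% ± 0.885 (SD, n = 2) and 27.9% ± 1.59 (n = 5), and lay -5.51 points apart (exact permutation over libraries, p = 0.0952, again at its lower limit). Against each day alone the difference was -4.43 points (7 days) and -7.14 points (13 days).

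The listed tiles did not move as one. Of the 133, 87 were lower and 46 higher, with a median difference of -3.11 points and a range from -47.2 to 13.3 points, against a median of -0.606 over all tiles. At 20 of them (15.04%) both hepatectomy libraries lay below all 5 Foxa3-null libraries, against 8.32% of all tiles, and at 3 (2.26%) they lay above, against 2.742% of all tiles. At 32 listed tiles of 20 to 40% in the age series controls the means were 20.9% ± 0.434 in hepatectomy GFP controls and 27.5% ± 2.03 in Foxa3-null controls. At 18 listed tiles of 40 to 60% they were 43.1% ± 2.97 and 54.1% ± 3.33. The differences of -6.61 and -10.9 points compare with -1.11 and -2.64 points at tiles of the same levels more than 2000 bp from any FoxA site. Other FoxA sites of those levels, 127 and 56 tiles, gave -2.72 and -5.89 points. At the 56 listed tiles of 0 to 20% the difference was smaller, at -1.58 points. Tiles of that level gave 0.0339 points more than 2000 bp from any FoxA site and 0.731 points in other FoxA sites. At the 6 listed tiles of 60% or more the difference was -3.23 points against all 5 libraries and 0.412 points against the 7-day controls alone.

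The same tiles in null livers had 24.7, 26.0 and 27.3% in hepatectomy double nulls, and 25.7, 24.5, 26.7, 27.8 and 26.4% in triple nulls. These groups overlapped, with a difference of -0.181 points. The control difference minus the null difference was -5.33 points. An exact permutation of the group labels within controls and within nulls gave p = 0.0561 for it (0.14 adjusted over the 5 classes tried). That test was added after the values were seen and assumes no difference between experiments in either set.

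At 4051 tiles in the other FoxA sites the 2 control groups overlapped. The levels were 8.35 and 7.25% in hepatectomy GFP controls, against 7.58, 7.47, 7.51, 7.82 and 7.24% in Foxa3-null GFP controls, so that the means differed by 0.279 points (exact permutation over libraries, p = 0.476). The difference was -1.11 points at the tiles of mean level 10 to 90%, and -0.269 points without hepatectomy library 1, the higher of the 2. Null livers differed more here, with 7.62 to 8.09% in hepatectomy double nulls and 5.53 to 6.52% in triple nulls. The control difference minus the null difference was -1.47 points (exact permutation p = 0.0425, 0.14 adjusted over the 5 classes).

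HNF6 is a homeodomain factor of hepatocytes that binds many enhancers near FoxA sites. At 421 tiles inside HNF6 peaks of control livers the mean level was 9.47 and 7.58% in hepatectomy GFP controls and 6.73 to 8.10% in Foxa3-null GFP controls, with overlap (exact permutation p = 0.381). In null livers it was 8.73% in hepatectomy double nulls and 5.25% in triple nulls, a difference of 3.48 points.

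**Figure D2:**
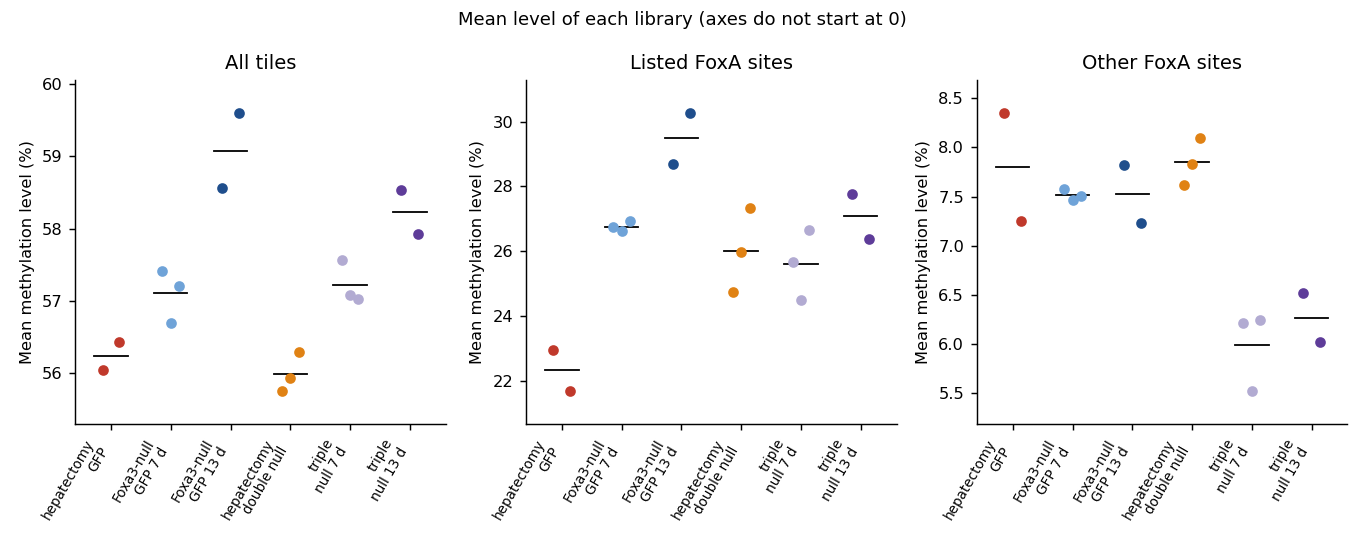
Mean methylation level (%) of each library over all tiles, tiles in listed FoxA sites and tiles in other FoxA sites; points are libraries, lines group means, and the axes do not start at 0. Hepatectomy GFP controls lie below Foxa3-null GFP controls over all tiles and at listed sites (22.3 and 27.9%), and overlap with them at other FoxA sites.

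For single tiles, limma's moderated test was run on percent values, with the spread taken from the 15 adult libraries of both experiments and Benjamini-Hochberg adjustment over all 442253 tiles. By this test 223 tiles rose and 245 fell in the hepatectomy GFP controls, together 0.106% of the tiles tested (0.0504% higher and 0.0554% lower). Here and below, rose and fell mean higher or lower in the hepatectomy group than in the other group. They do not mean a change within a liver over time. Of these, 64 rose and 173 fell by 20 points or more, 0.0536% of tiles. The groups did not overlap at any of the 468 called tiles, against 11.1% of all tiles where they did not overlap. An unadjusted p under 0.05 was reached at 36860 tiles.

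The 2 hepatectomy libraries limit these counts. Without hepatectomy library 1 the test called 914 tiles higher and 769 lower, and without library 2 it called 1136 and 663, where the lone library is assumed to vary like the other groups; 282 and 284 of the 468 tiles were among them. Without 13-day library 1 or 2, or 7-day library 3, 150, 143 and 161 tiles fell. Against the 7-day controls alone 118 rose and 97 fell, and against the 13-day controls alone 158 rose and 331 fell. With the spread from the 7 libraries alone 97 rose and 48 fell.

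Among the called tiles were a low and a wide kind, while others, such as the lower calls under 20 points, were of neither. At 112 of the higher tiles the Foxa3-null mean was under 1%, and the median rise there was 3.44 points; 4 of them rose by 20 points or more. Tiles called with under 20 points of difference numbered 159 higher and 72 lower. Calls that differed by 20 points or more were mostly lower, 173 against 64. The same held over all tiles tested, called or not, with 3951 lower and 1156 higher by 20 points or more.

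Inside FoxA sites 1 of the 133 listed tiles and 7 of the 4051 other tiles were called, 0.752% and 0.173%, against 0.106% of all tiles. The listed tile, at chromosome 5, 92540201 to 92540300, had 28.6 and 22.2% in hepatectomy GFP controls and 68.4, 73.1, 73.7, 82.4 and 65.2% in Foxa3-null GFP controls. It fell by 47.2 points (a difference of -47.2, SE 7.73, limma adjusted p = 0.0399), and its level was 54.8% in hepatectomy double nulls and 60.9% in triple nulls. At tiles of 0 to 10% in the age series controls, whether in FoxA sites or not, 97 calls were higher and 15 lower. The 7 called tiles of other FoxA sites were all higher, with a median of 4.59 points.

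The widest of those 7, at chromosome 8, 46092601 to 46092700, had 38.9 and 28.2% in hepatectomy GFP controls and 10.0, 5.13, 0, 0 and 0% in Foxa3-null GFP controls. It rose by 30.5 points (SE 3.52, limma adjusted p = 0.0109), and hepatectomy double nulls had 10.1%. At chromosome 4, 106262801 to 106262900, the levels were 17.4 and 24% in hepatectomy GFP controls and 0 to 9.09% in Foxa3-null GFP controls, a rise of 16.8 points (SE 2.47, limma adjusted p = 0.0194). Neither of these tiles overlapped between the groups. The remaining named ones lay at chromosome 16, 84808201 to 84808300, and chromosome 11, 98769101 to 98769200, with rises of 11.04 and 4.59 points. Inside HNF6 peaks 1 of the 421 tiles was called (0.2375%, against 0.106% of all tiles). This tile, at chromosome 2, 29682801 to 29682900, had 4.00 and 2.50% in hepatectomy GFP controls and 0% in each Foxa3-null GFP control (limma adjusted p = 0.0472). Its mean was 0% in hepatectomy double nulls and 0.435% in triple nulls.

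The same experiments held a separate set of livers. Hepatectomy double nulls had FoxA1 and FoxA2 removed in adulthood and then partial hepatectomy (12 weeks, n = 3). Triple nulls had lost all 3 factors, 7 days after Cre at 9 weeks or 13 days after Cre at 12 weeks (n = 5). These null groups differ in regrowth, Foxa3 and experiment as the controls do. They share no library with the controls, though the fit shares 1 estimate of the spread. Between them 467 tiles rose and 523 fell in hepatectomy double nulls, 0.233% of 424738 (0.11% higher and 0.123% lower).

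At the 419 called tiles that also had values in all null libraries, 333 (79.5%) differed in the same direction in null livers, against 59.9% of all tiles with values in both. For differences of 20 points or more it was 201 of 208 (96.6%), and for smaller ones 132 of 211 (62.6%). The 184 tiles called in both comparisons all had the same direction, 73 higher and 111 lower. Across the 419 tiles the differences correlated with Pearson's r = 0.931, and across all tiles with r = 0.336, where tiles are not independent replicates. Tiles that fell had a median difference of -28.4 points in controls and -19.1 points in nulls, and tiles that rose 9.20 and 2.16 points.

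A test of the difference between both contrasts called 13 tiles where the control difference exceeded the null difference and 3 where it was below, 0.00401% of 399285 tiles; 19191 had an unadjusted p under 0.05. In 12 of the 13 the Foxa3-null GFP controls were at 0% in every library, and 14 of the 16 were called in the control comparison. The widest of the 13, at chromosome 14, 63742701 to 63742800, had 13.3 and 13.7% in hepatectomy GFP controls and 0, 0, 0, 0 and 3.51% in Foxa3-null GFP controls, with 2.08, 0 and 0% in hepatectomy double nulls and 0% in all triple nulls. The control difference there exceeded the null difference by 12.1 points (SE 1.14, limma adjusted p = 0.00483).

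**Figure D3:**
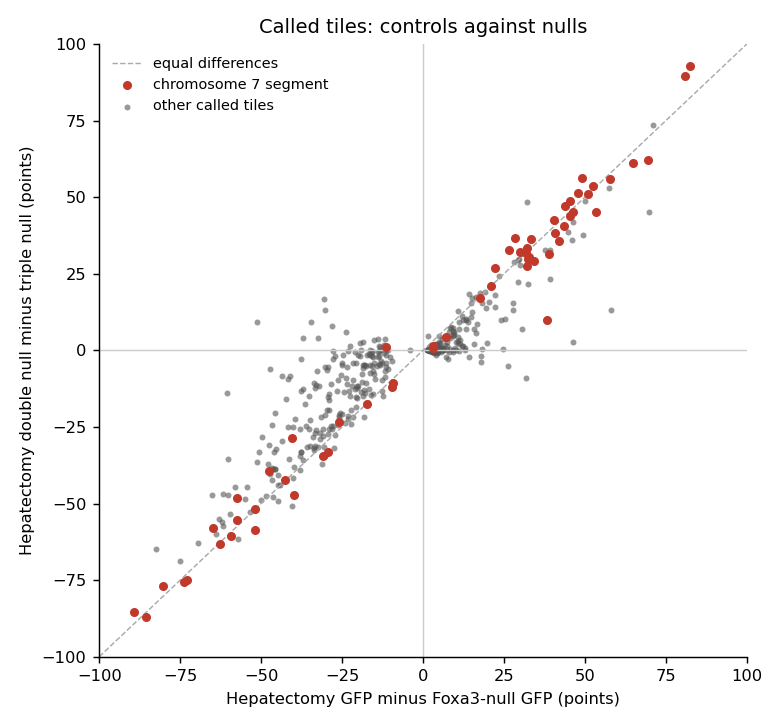
Difference in methylation level (percentage points) at called tiles, hepatectomy GFP minus Foxa3-null GFP controls across and hepatectomy double nulls minus triple nulls upward, with the segment of chromosome 7 marked. Null means are over the null libraries with a value, so tiles that lack some null libraries are also shown. The tiles of that segment lie near the line of equal differences. Higher calls under 20 points had a median difference of 4.62 points in controls and 0.219 points in nulls. For lower calls under 20 points the medians were -15.1 and -4.81 points.

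The calls were unevenly spread over the chromosomes. Chromosome 7 held 76 of the 468 calls (16.2%) with 6.54% of the tested tiles, chromosome 8 held 60 (12.8%) with 6.00% and chromosome 1 held 50 (10.7%) with 6.33%. On chromosome 1, 44 of the calls were lower, and on chromosome 8, 46 were lower, while on chromosome 7, 49 were higher and 27 lower. Among differences of 20 points or more the 3 chromosomes held 57, 39 and 39 of 237 calls.

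Joining calls up to 1 Mb apart, a rule chosen after the values were seen, gave 13 segments of at least 4 calls. They held 133 of the 468 calls and 108 of the 237 calls of 20 points or more. The largest ran over chromosome 7 from 13507501 to 20535600. It held 59 calls among 1878 tested tiles (3.14%), 36 higher and 23 lower, and 51 of them differed by 20 points or more. As the segment was drawn by joining calls, a share above the 0.106% of all tiles was built in.

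At the calls of 20 points or more in that segment, library means separated along the labelled Foxa3 genotype. All 10 labelled Foxa3-null libraries are triple nulls or their GFP controls, taken after 7 or 13 days, and no label names a batch. Genotype and experiment cannot be told apart there. Library means here and below are over the tiles with a value in that library, which can be fewer outside the 7 controls. At the 32 tiles that rose by 20 points or more the library means were 84.9 and 84.6% in hepatectomy GFP controls and 40.2 to 42.6% in Foxa3-null GFP controls. They were 83.1 to 84.9% in hepatectomy double nulls, 40.4 to 42.0% in triple nulls and 78.2 to 90.02% in the 12 RRBS libraries of neither experiment. The 12 were age series controls and developmental nulls (20 days, 8 weeks, 4 months and 6 months old) and livers that kept Foxa alleles. The last were FoxA1L/L;FoxA2L/+ or FoxA1L/+;FoxA2L/+, depleted in development, at 8 weeks of age. No label of the 12 names a Foxa3 deletion or hepatectomy. At 23 of the 32 tiles the Foxa3-null mean lay between 30 and 70%. At the 19 tiles that fell by 20 points or more the means were 19.4 and 20.9% in hepatectomy GFP controls and 73.1 to 79.3% in Foxa3-null GFP controls, with 20.6 to 21.7% in hepatectomy double nulls, 73.6 to 77.8% in triple nulls and 16.0 to 31.2% in the 12 other libraries. Neither direction showed any overlap between the 10 labelled Foxa3-null libraries and the other 17.

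Counted tile by tile, all 10 Foxa3-null libraries stood apart from the 17 others at 47 of the 59 calls (79.7%), at 15 of the 409 calls outside the segment (3.67%), and at 0.0373% of all tiles. The 5 hepatectomy libraries stood apart from the 22 others at 0 of the 59 and at 7 of the 409 (1.71%), against 0.104% of all tiles. These counts use the control libraries that made the calls, so they are a description. The null libraries entered the calls through the shared spread but not through the difference tested, and between them 53 of 54 tiles of the segment had the same direction and 49 were called.

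**Figure D4:**
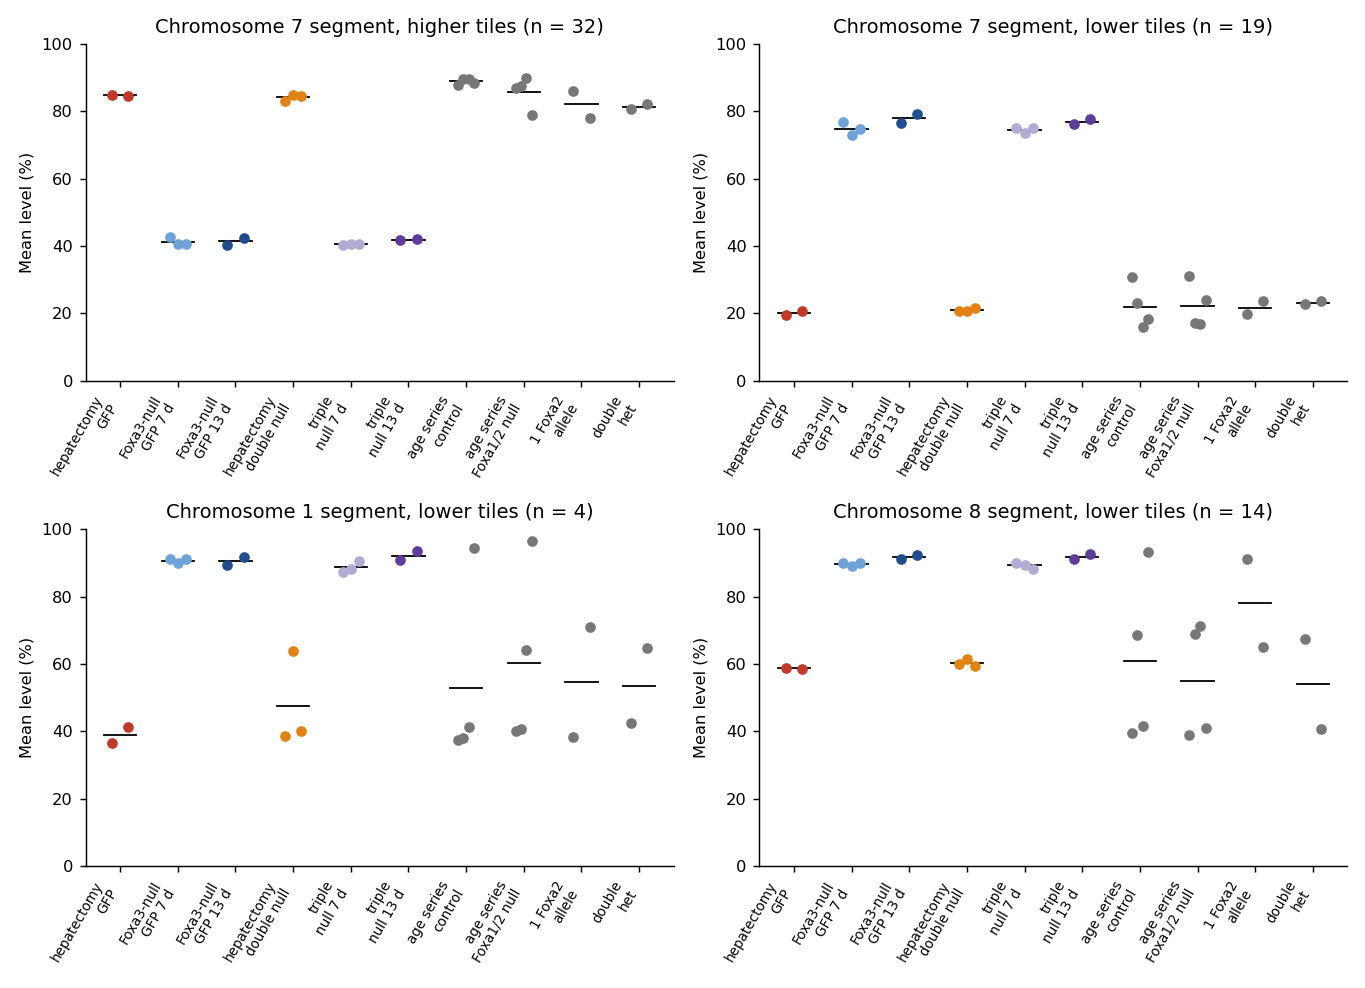
Mean methylation level (%) of each of the 27 RRBS libraries at called tiles of 20 points or more in 3 segments; points are libraries and lines group means. On chromosome 7 the 10 Foxa3-null libraries (7-day and 13-day GFP controls and triple nulls) stand apart from all others, while on chromosomes 1 and 8 the libraries of neither experiment span the range between the groups.

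Of the 5 widest differences among all calls, 4 lay within this segment. The tile at chromosome 7, 19385501 to 19385600, had 76.9 and 88.9% in hepatectomy GFP controls and 0, 0, 2.63, 0 and 0% in Foxa3-null GFP controls. It rose by 82.4 points (SE 3.80, limma adjusted p = 1.84e-06), and 2 hepatectomy double nulls had 86.7 and 100.0% where triple nulls had 0 to 2.50%. The tile at 20329801 to 20329900 had 95.0 and 81.8% in hepatectomy GFP controls, against 38.1, 0, 0, 0 and 0% in Foxa3-null GFP controls (SE 9.18, limma adjusted p = 0.00278). Of the libraries of neither experiment, the 10 with a value at the first tile ran from 43.8 to 100% and the 11 with a value at the second from 31.2 to 100%. Further tiles of this kind at 17920701, 16792301, 17223001, 18965301, 17630301 and 16823301 rose by 50.8 to 69.5 points. The first of these was near 0% in Foxa3-null controls, and in the others Foxa3-null controls lay between 25.0 and 50.0%.

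The lower calls of the segment were concentrated in a 19000 bp stretch from 19589901 to 19608900. Of 29 tested tiles there 27 were lower in the hepatectomy GFP controls and 20 were called, all lower. The mean over the 29 tiles was 17.8% in hepatectomy GFP controls and 68.4% in Foxa3-null GFP controls, with 18.0% in hepatectomy double nulls, 68.8% in triple nulls and 19.8% in the 12 other libraries.

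Within it lay the largest cluster of calls, joined at less than 1 kb, from 19589901 to 19591500, with 12 of 13 tested tiles called. The tile at 19590301 to 19590400 had 3.17 and 4.39% in hepatectomy GFP controls and 92.9, 90.6, 93.3, 94.2 and 93.9% in Foxa3-null GFP controls. It fell by 89.2 points (SE 3.57, limma adjusted p = 2.21e-07), the widest fall of all calls, with 5.90% in hepatectomy double nulls and 91.4% in triple nulls. The 12 other libraries averaged 4.99% at this tile, from 1.35 to 9.13%. In both control groups the last tile of the cluster was more methylated than the first. The first tile had 0.606 and 0.418% in hepatectomy GFP controls and 6.05 to 12.4% in Foxa3-null GFP controls, and the last 71.4 and 65.0% against 94.9 to 100%. Hepatectomy GFP controls lay between 20.0 and 46.7% from 500 to 1400 bp after the first tile, where the Foxa3-null GFP controls lay between 73.3 and 100%.

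Further along, the tile at 19603201 to 19603300 had 12.5 and 7.69% in hepatectomy GFP controls and 93.8, 91.4, 97.9, 94.4 and 100% in Foxa3-null GFP controls, and fell by 85.4 points (SE 4.72, limma adjusted p = 4.3e-06). The second cluster, from 19608201 to 19608900, had 4 of 6 tiles called, all lower. At 19608401 to 19608500 the levels were 4.62 and 7.04% in hepatectomy GFP controls and 52.1, 48.5, 36.6, 47.4 and 57.5% in Foxa3-null GFP controls (SE 5.89, limma adjusted p = 0.0126). The third, from 18965301 to 18965700, had 3 of 4 tiles called, all higher. Its first tile had 97.8 and 88.3% in hepatectomy GFP controls and 28.6, 44.1, 50.0, 35.0 and 40.9% in Foxa3-null GFP controls, and rose by 53.3 points (SE 6.30, limma adjusted p = 0.00388). No gene is named for these clusters, as no mm9 annotation was used here.

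**Figure D5:**
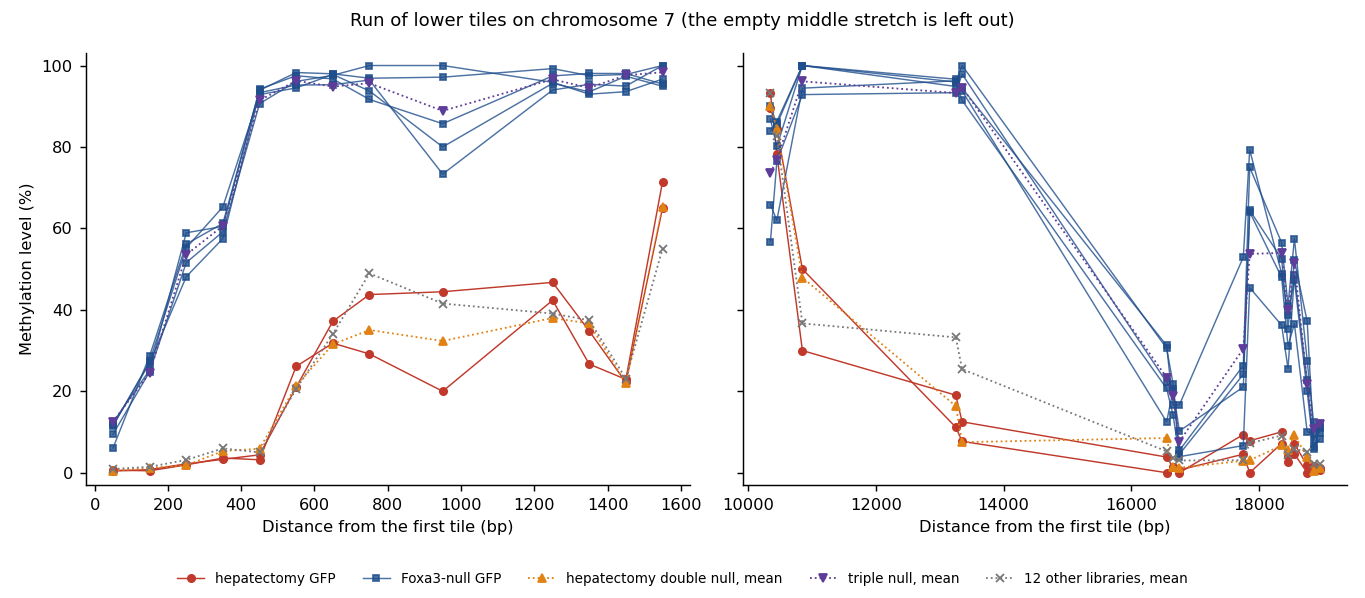
Methylation level (%) of tested tiles by distance (bp) from the first tile of the 19000 bp stretch on chromosome 7, with each control library as a line and the means of hepatectomy double nulls, triple nulls and the 12 other libraries dotted; the stretch without tiles is left out. Hepatectomy GFP controls follow the other libraries without a labelled Foxa3 deletion, and Foxa3-null GFP controls follow the triple nulls, up to 89.2 points higher.

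The segments of chromosomes 1, 8 and 12 showed another pattern. On chromosome 8, from 33764101 to 37655700, 17 tiles were called, 15 lower. At the 14 that fell by 20 points or more the library means were 58.8 and 58.5% in hepatectomy GFP controls and 89.0 to 92.4% in Foxa3-null GFP controls, with 59.3 to 61.5% in hepatectomy double nulls and 88.3 to 92.7% in triple nulls. In the 12 libraries of neither experiment they ran from 39.0 to 93.3%, with 5 between 39.0 and 41.7%, 5 between 65.0 and 71.2% and 2 at 91.3 and 93.3%. None of the 12 lay at the level of the hepatectomy GFP controls, and 2 lay at that of the Foxa3-null GFP controls.

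On chromosome 1 the segment from 36867001 to 37291900 had 4 calls, all lower. The means were 36.6 and 41.3% in hepatectomy GFP controls, 89.3 to 91.6% in Foxa3-null GFP controls, 38.7, 63.9 and 40.2% in hepatectomy double nulls and 87.2 to 93.4% in triple nulls. The 12 other libraries ran from 37.4 to 96.4%, and the 2 highest were the 8-week control and the 8-week developmental null of the age series, at 94.6 and 96.4%. Double null library 2 stood apart from the other 2 double nulls in this segment and in those from 33313401 to 34865700 (71.5% against 52.8 and 53.1%) and from 39023101 to 39711900 (65.2% against 45.6 and 46.5%).

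On chromosome 12, from 105236601 to 106243500, 4 tiles were called higher, with library means of 79.1 and 65.6% in hepatectomy GFP controls and 29.8 to 33.9% in Foxa3-null GFP controls. Hepatectomy double nulls had 57.2 to 61.6% and triple nulls 30.2 to 33.1%, while the 12 other libraries ran from 31.1 to 80.02%. The segment from 26629901 to 28430400 on chromosome 8 held 12 calls, and its 7 wide falls had 38.2 and 55.1% in hepatectomy GFP controls and 81.8 to 87.3% in Foxa3-null GFP controls.

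Outside the chromosome 7 segment 409 tiles were called, 187 higher and 222 lower, and 154 of the lower ones differed by 20 points or more. The widest fall, at chromosome 5, 103794401 to 103794500, had 0 and 3.08% in hepatectomy GFP controls and 86.1, 97.4, 84.8, 77.8 and 74.4% in Foxa3-null GFP controls. It fell by 82.6 points (SE 8.91, limma adjusted p = 0.00183), with 5.06% in hepatectomy double nulls and 69.9% in triple nulls, and the 9 libraries of neither experiment with a value spanned 0 to 92.3%. At chromosome 3, 26821801 to 26821900, the levels were 32.5 and 27.9% in hepatectomy GFP controls and 83.3 to 100% in Foxa3-null GFP controls, which did not overlap (SE 4.94, limma adjusted p = 0.00016). The other named falls outside the segment ran from 60.3 to 75.1 points in size and lay on chromosomes 1 (4 tiles), 2, 7, 8 and 12.

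Named rises outside the segment were fewer. At chromosome 3, 52809801 to 52809900, hepatectomy GFP controls had 91.7 and 52.9% and Foxa3-null GFP controls 0, 0, 0, 6.25 and 0% (SE 12.0, limma adjusted p = 0.0465). At chromosome 11, 104676001 to 104676100, the levels were 91.5 and 100.0% in hepatectomy GFP controls and 36.4, 46.4, 35.2, 37.1 and 36.4% in Foxa3-null GFP controls (SE 5.85, limma adjusted p = 0.00127). Hepatectomy double nulls resembled hepatectomy GFP controls at both, with 74.8 and 89.8%. The tile at chromosome 12, 70980501 to 70980600, differed in this, since hepatectomy GFP controls had 56.2 and 60%, every Foxa3-null GFP control had 0%, and hepatectomy double nulls had 0, 0 and 39.4%.

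At 240 of the 468 calls (51.3%) the mean of the libraries of neither experiment that had a value lay nearer to the hepatectomy GFP controls, and at 228 nearer to the Foxa3-null GFP controls. In the chromosome 7 segment it lay nearer to the hepatectomy GFP controls at 56 of 59. Among wide falls outside that segment it lay nearer to the Foxa3-null GFP controls at 88 of 154. Over all tiles tested it lay nearer to the hepatectomy GFP controls at 34.9%. The mean level of these libraries over tested tiles with a value was 57.8 to 60.9%, above both hepatectomy GFP controls.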

How the data were processed

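RRBS libraries of hepatocyte DNA were made with the Ovation kit and sequenced on a HiSeq instrument, per the labels' protocols. Reads were trimmed with Trim Galore 0.3.3 and mapped with BSMAP 2.74 to mm9, per the submitters' processing notes. The authors deposited 1 methylation fraction per 100 bp tile and library, which was multiplied by 100 to give percent. The way reads were summarised into tiles, and their coverage, are not given in the sources used. The table covers 19 autosomes and also holds 8 columns of the authors' averages, which were not used. FoxA sites (33302 of 400 bp, 2705 of them listed) and HNF6 peaks were used as positions only, the peaks called with MACS 2.1.1 per the file headers.

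Tiles were tested with limma 3.58.1 in R 4.3.3, with a variance trend, in 4 groups of 15 libraries, both days of a genotype as 1 group, and an adjusted p threshold of 0.05. For class means, library labels were permuted exactly and two-sided (Python 3.11.15). The tests were also tried on simulated data. Alternatives were a 20-point minimum, a logit scale (offset 0.01), other sources of the spread, 1 day only, levels of 5 to 95%, centred libraries, a replicate block and leaving out each library.

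Named tiles are the 12 widest calls each way, at most 1 per 10 kb, the 4 widest each way in FoxA sites and in HNF6 peaks, and the 3 clusters with most calls (joined under 1 kb). Members and lists were chosen with earlier results of these data known. Tissue marker lists could not be applied without an mm9 annotation, so the labelled tissue was not checked against markers.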

Additional observations from a re-analysis of the deposited data

Results flagged for a closer look

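Among named tiles, 5 of 35 groups of 5 libraries had 1 library far from the others. The chance rate of about 1 in 20 does not hold where the other libraries were all at 0%, since any value above 0% then stands apart. In the Foxa3-null GFP controls these were 2.63% at chromosome 7, 19385501 to 19385600 (the others at 0%), 38.1% at chromosome 7, 20329801 to 20329900 (the others at 0%), and 3.85% at chromosome 7, 17920701 to 17920800 (the others at 0%). The remaining ones were 6.25% at chromosome 3, 52809801 to 52809900 (the others at 0%), and 46.4% at chromosome 11, 104676001 to 104676100 (the others at 35.2 to 37.1%).

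The mean over other FoxA sites was flagged on an unadjusted p, and the adjusted p did not establish a difference between the contrasts. This mean was 0.279 points higher in hepatectomy GFP than in Foxa3-null GFP controls. It was 1.75 points higher in hepatectomy double nulls than in triple nulls. The control difference minus the null difference was -1.47 points (exact permutation p = 0.0425, 0.14 adjusted over 5 classes). That test was added after the values were seen. Without hepatectomy library 1 the control difference was -0.269 points.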

How the results depend on the processing

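The lower means over all tiles, listed FoxA tiles and distant tiles kept their direction under every alternative run, and without any 1 library ranged from -1.95 to -1.22, -6.14 to -4.89 and -2.05 to -1.28 points. The other FoxA tiles turned to -1.11 points at levels of 10 to 90% and ranged from -0.269 to 0.827 without 1 library. Counts of called tiles moved more, and the cause was not tested. Higher and lower in hepatectomy GFP controls (223 and 245), they were 64 and 173 with 20 points, 155 and 68 on the logit scale, 97 and 48 with the spread from the libraries compared, 75 and 142 from all 27, 118 and 97 against 7 days, and 93 and 293 at levels of 5 to 95%. Without 1 library they ranged from 173 to 1136 and from 143 to 769. In the chromosome 7 segment 74.6% of calls and outside it 33.0% held against 7 days alone, and 22.0 and 13.2% with the spread from the 7 libraries.

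Between null livers (467 and 523) they were 175 and 276 with 20 points, 224 and 119 on the logit scale, 189 lower with their own spread, 277 higher with all 27 libraries, 204 higher against 13 days, 217 and 139 against 7 days, 1207 higher with centred libraries, which moves the median of all tiles to 1.04 points, and 272 to 535 and 235 to 463 without 1 library. For the difference of both contrasts (13 and 3) they were 0 and 1 with 20 points, 34 and 8 on the logit scale, 1 higher with all 27 libraries, 16 below against 13 days, 6 above against 7 days, 0 and 0 at 5 to 95%, 1 and 1 when centred, and 12 to 442 and 2 to 138 without 1 library.

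Same-numbered libraries deviated with correlations of -0.0476 to 0.0149 (33 pairs), so the numbers were not taken to pair them. With the replicate block 141 tiles were higher and 142 lower in controls, 306 and 279 in nulls, and 6 and 0 for the difference. Restricting to autosomes changes nothing, as the table holds no other chromosome. Depth is unknown, levels near 0 or 100% rest on unknown read numbers, and 2 libraries in a group limit every count.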
